A study of Mus musculus with 48 samples.

Results

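miR-122-5p, miR-192-5p and miR-194-5p (listed as mmu-miR-122-5p, mmu-miR-192-5p and mmu-miR-194-5p), 3 microRNAs (miRNAs) known from liver and gut epithelium, were followed through the ganglia of mice given bacterial lipopolysaccharide (LPS) or saline. They were taken by name from a table of 1978 mature miRNAs counted in 48 small RNA libraries, and all 3 were found, with counts above 0 in all 48 libraries. The tissues were the trigeminal ganglion (TG), which holds the sensory neurons of the face, and the superior cervical ganglion (SCG), whose sympathetic neurons supply the head and neck. Balb/c mice of both sexes aged 2.5 months were injected into the peritoneum with LPS of E. coli O55:B5 (dose 2.5 mg/kg) or with its saline vehicle, in the same volume of 0.2 mL. LPS, a component of the outer membrane of Gram-negative bacteria, sets off systemic inflammation. Ganglia were taken 4 h, 24 h or 7 d later, which gave 12 groups of 4 libraries: LPS and saline, at each time, in TG and in SCG, each with 2 male and 2 female libraries. Replicates 1 and 2 were female, and replicates 3 and 4 were male. Both ganglia of a kind were removed from each mouse, and the labels do not say which TG and SCG libraries came from the same animal. They name no step that cleared blood from the tissue.

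A miRNA is cut from a hairpin transcript and guides a silencing complex to mRNAs that pair with its seed, the bases 2 to 8 of the mature strand. miR-122 is the most abundant miRNA of hepatocytes and scarcely expressed in most other cells. miR-192 and miR-194 are made together from clustered hairpins and are abundant in epithelium of liver, gut and kidney, where hepatocyte nuclear factors drive their transcription. All 3 are measured in plasma as markers of liver injury, since damaged hepatocytes release them into the blood, which makes their level in a vascularised tissue after systemic inflammation of interest.

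The mature sequences show which of the counted strands can be told apart, with the seed in capitals and all written 5′ to 3′ as RNA from RefSeq on build GRCm38.p6.
mmu-miR-192-5p: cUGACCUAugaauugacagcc
mmu-miR-215-5p: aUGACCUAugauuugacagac
mmu-miR-194-5p: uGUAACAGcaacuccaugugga
mmu-miR-194-2-3p: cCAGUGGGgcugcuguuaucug
mmu-miR-194-1-3p: cCAGUGGAgcugcuguuacuuc
Of the 9 mature names considered, which were the 3 miRNAs, the other strands of their hairpins and both strands of the paralog miR-215, 7 were matched in RefSeq. Neither strand of miR-122 was matched, so no sequence of miR-122 is shown. miR-192-5p and miR-215-5p share their seed, and differ at 3 of 21 positions counted from the 5′ end, C1A, A12U and C20A (the base of miR-192-5p first). miR-194-5p has another seed and is the same in both of its hairpins, so its counts cannot be assigned to either. The 3p strands of these hairpins differ at 4 of 22 positions, G8A, U19C, C20U and G22C (the base of miR-194-2-3p first). On GRCm38.p6, Mir194-2 (chr19:6264643-6264728, plus strand) and Mir192 (chr19:6264844-6264932, plus strand) are 115 bases apart, and the GENCODE annotation places only these miRNA genes there. Mir194-1 (chr1:185313319-185313385, plus strand) and Mir215 (chr1:185313581-185313692, plus strand) are 195 bases apart, within the noncoding gene 2010103J01Rik and opposite the coding gene Iars2. Mir215 lies in an exon of 2010103J01Rik, whereas Mir194-1 lies in no exon of it.

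Each level is a CPM, the count relative to the size of its library, with sizes adjusted over all 48 libraries by the trimmed mean of M-values (TMM), and is given as mean ± SD over libraries. Total miRNA counts per library ran from 2198180 to 5166995 in TG and from 1774047 to 5592766 in SCG, and the rarer miRNAs rested on few reads. miR-192-5p averaged 486 ± 28.0 CPM in TG and 374 ± 27.6 CPM in SCG (n = 24 each), and it had 620 to 2275 reads in a library. miR-194-5p averaged 206 ± 12.2 CPM in TG and 165 ± 17.2 CPM in SCG, with 279 to 988 reads. miR-122-5p averaged 40.9 ± 6.02 CPM in TG and 26.9 ± 24.8 CPM in SCG, with 34 to 273 reads. Its SCG mean was carried up by replicate 1 of SCG 4 h saline at 139 CPM, and was 22.1 ± 6.62 CPM without it (n = 23). By rank, miR-192-5p stood at a median place of 105 in TG and 118.5 in SCG among the miRNAs of a library, miR-194-5p at 144.5 and 159, and miR-122-5p at 250 and 285. The ligation steps of small RNA kits favour some ends over others, so levels of different miRNAs are comparable only roughly.

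**Figure D1:**
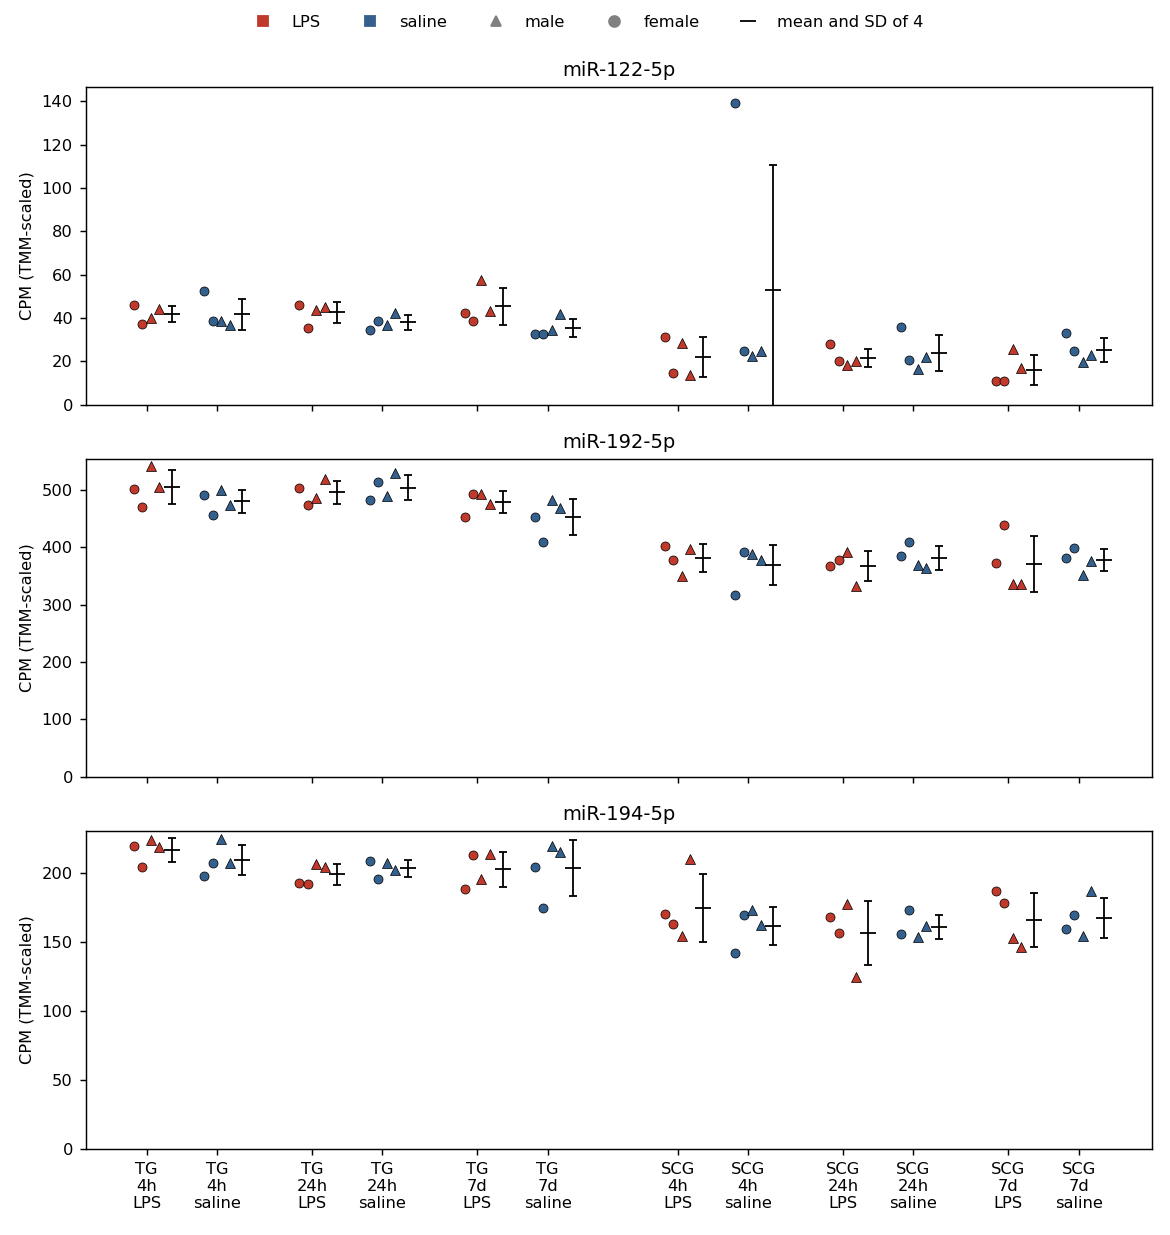
CPM of miR-122-5p, miR-192-5p and miR-194-5p in each of the 48 libraries, by ganglion, time and treatment, with triangles for male and circles for female mice, and the mean and SD of each 4 libraries beside them. The TG groups lie above the SCG groups for miR-192-5p and miR-194-5p. In the top panel 1 saline library of SCG at 4 h stands at 139 CPM, which stretches the SD of its group below 0, where the axis ends it.

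The reference for these values is what else was in the tissue. The 7 neuron miRNAs listed for the check, among them miR-124-3p of neurons in general and miR-183-5p of sensory neurons, were detected in every group, and summed to between 86516 and 123126 CPM in TG and between 9317 and 38140 CPM in SCG. The 7 red cell strands of miR-451a, miR-144, miR-486a and miR-486b summed to 1600 to 8626 CPM in TG (median 3075) and 749 to 3778 CPM in SCG (median 1257). The 4 muscle miRNAs summed to 4128 to 15139 CPM in TG and 189 to 94360 CPM in SCG, and the 7 epithelial miRNAs to 109 to 2699 CPM in TG and 189 to 12490 CPM in SCG. Both SCG maxima came from replicate 1 of SCG 4 h saline, the library with the high miR-122-5p. Replicate 2 of SCG 7 d LPS also stood apart, with 9709 CPM of the 5 leukocyte and platelet strands, against at most 823 CPM in the other SCG libraries. It also held 10574 CPM of the epithelial, 35395 CPM of the muscle and 37932 CPM of the neuron miRNAs, and the SCG maxima of the red cell strands (3778 CPM) and of the other liver and gut strands (62769 CPM). The neuron miRNAs were also high in replicate 1 of SCG 24 h saline, at the SCG maximum of 38140 CPM. Replicate 1 of SCG 7 d saline had 25286 CPM of them, and the remaining SCG libraries at most 15680 CPM.

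miR-122-5p was higher in TG than in SCG after LPS, by 2.17-fold (log2 1.12 ± 0.16 SE, 95% interval 1.72- to 2.75-fold, adjusted p = 5.93e-06, edgeR's quasi-likelihood test). The 12 LPS libraries ran from 35.3 to 57.7 CPM in TG (median 43.6) and from 10.9 to 31.5 CPM in SCG (median 19.1). These ranges did not overlap. Of the 560 miRNAs tested, 51.6% were called between the ganglia after LPS, and how many had separate ranges was not counted. In saline mice miR-122-5p ran from 32.7 to 52.6 CPM in TG (median 37.8) and from 16.4 to 139 CPM in SCG (median 23.9). The difference in saline mice did not pass the test (log2 0.28 ± 0.24, adjusted p = 0.323). Without replicate 1 of SCG 4 h saline it was log2 0.63 ± 0.12 with an adjusted p of 5.55e-05. By group, the mean was 35.4 to 45.5 CPM in the 6 TG groups and 16.1 to 25.3 CPM in 5 SCG groups. SCG 4 h saline, at 52.8 ± 57.7 CPM, came out highest of all 12 through its first library, and was 24.0 ± 1.18 CPM without it (n = 3).

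miR-192-5p was 1.31-fold higher in TG than in SCG after LPS (log2 0.38 ± 0.07, adjusted p = 0.000103) and 1.21-fold higher in saline mice (log2 0.28 ± 0.05, adjusted p = 0.00013). Its LPS libraries ran from 452 to 542 CPM in TG (median 492) and from 332 to 438 CPM in SCG (median 375). Its saline libraries ran from 409 to 529 CPM in TG (median 482) and from 316 to 409 CPM in SCG (median 380). The lowest TG library, replicate 2 of TG 7 d saline, lay just above the highest saline library of SCG and below the highest LPS library of SCG. miR-194-5p was 1.23-fold higher in TG than in SCG after LPS (log2 0.30 ± 0.08, adjusted p = 0.00477) and 1.20-fold higher in saline mice (log2 0.26 ± 0.06, adjusted p = 0.000493). Its LPS libraries ran from 189 to 224 CPM in TG (median 206) and from 125 to 211 CPM in SCG (median 166), and its saline libraries from 175 to 225 CPM in TG (median 207) and from 142 to 187 CPM in SCG (median 162), so the ganglia overlapped in a few libraries. After LPS, the calls of both miR-192-5p and miR-194-5p were lost when low counts were not filtered out (log2 0.40, adjusted p = 0.168, and log2 0.31, adjusted p = 0.368, edgeR's quasi-likelihood test).

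All 3 miRNAs were thus called between the ganglia after LPS, among 51.6% of the 560 miRNAs tested, and 2 of 3 in saline mice, among 66.4% of 541. With most miRNAs differing between the ganglia, a call alone says little about these 3. The scaling also matters for changes this small. The median log2 difference of all tested miRNAs was -0.00 in saline mice and -0.11 in LPS mice, and it moved by up to 0.13 in saline mice when the filter on low counts was dropped. Set against that median, miR-192-5p lay 0.28 log2 units higher in saline mice (0.25 to 0.32 over another scaling, no filter and each library left out) and 0.49 higher in LPS mice (0.47 to 0.52). miR-194-5p lay 0.26 (0.24 to 0.30) and 0.41 (0.37 to 0.45) above it. miR-122-5p lay 0.28 (0.21 to 0.57) above the median in saline mice and 1.23 (1.11 to 1.34) above it in LPS mice.

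Red cell miRNAs moved the same way between the ganglia. All 7 were called higher in TG than in SCG in saline mice, with a median log2 difference of 1.32, and 4 of 7 in LPS mice, with a median of 0.96. Of all miRNAs tested, 170 of 541 were called higher in TG in saline mice and 136 of 560 in LPS mice. The direction was not particular to red cells. All 7 neuron miRNAs were called higher in TG in saline mice (median log2 2.73) and 6 of 7 in LPS mice (2.44). Of the 7 epithelial miRNAs, 5 were called higher and 1 lower in saline mice (median 2.96), and 0 higher and 1 lower in LPS mice (2.78). Of the 4 muscle miRNAs, 1 was called higher in saline mice (median 1.69) and 2 in LPS mice (1.61). The 5 leukocyte and platelet strands did not share this direction. In saline mice 1 was called higher and 1 lower in TG (median -0.10), and in LPS mice 4 were called lower (median -1.02). The LPS value includes replicate 2 of SCG 7 d LPS, at 9709 CPM of these strands against at most 823 CPM in the other SCG libraries. The difference without that library was not tested. The 3 listed miRNAs that inflammation induces, named below, were also called lower in TG, 2 in saline mice and 3 in LPS mice. The median over all tested miRNAs was -0.00 in saline mice and -0.11 in LPS mice. miR-451a, the most abundant of red cells, differed by log2 1.26 ± 0.30 in saline mice (adjusted p = 0.00079) and by 0.38 ± 0.35 in LPS mice (adjusted p = 0.375). Of the other 8 liver and gut strands listed, 5 were tested. In saline mice 2 of these were called higher in TG, miR-148a-3p at log2 0.74 ± 0.13 (adjusted p = 3.15e-05) and miR-31-5p at 0.81 ± 0.29 (adjusted p = 0.0174), and in LPS mice none of the 5 was called. The part of red cells in the ganglion difference was not tested, and whether more cells or more RNA per cell held these miRNAs cannot be told apart in bulk tissue.

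LPS changed none of the 3 miRNAs past the test at any time in either ganglion. miR-122-5p had 45.9, 37.4, 40.2 and 44.2 CPM in TG 4 h LPS, against 52.6, 38.5, 38.8 and 37.0 CPM in TG 4 h saline, and these groups lay across each other (log2 0.00 ± 0.14). At 24 h it had 46.0, 35.3, 43.8 and 45.3 CPM in TG after LPS, against 34.5, 38.5, 36.7 and 42.2 CPM after saline (log2 0.17 ± 0.14, adjusted p = 0.998). Here 3 of 4 LPS libraries exceeded every saline library. At 7 d it had 42.2, 38.6, 57.7 and 43.4 CPM in TG after LPS, against 32.8, 32.7, 34.4 and 41.8 CPM after saline, and again 3 of 4 LPS libraries lay above all 4 saline libraries. That was the largest of its 3 TG values, at log2 0.36 ± 0.14 (1.29-fold, 95% interval 1.05- to 1.58-fold), with an unadjusted p of 0.0182 and an adjusted p of 0.114. An exact two-sided permutation test of the 4 against 4 libraries gave p = 0.0571, where 0.0286 is the smallest it can give. How many other miRNAs of TG had 3 of 4 LPS libraries above all saline libraries at 24 h or 7 d was not counted.

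In SCG the fitted values of miR-122-5p pointed to lower levels after LPS, also short of the test. At 4 h it had 31.5, 14.7, 28.4 and 13.8 CPM in SCG after LPS, against 139, 24.7, 22.7 and 24.7 CPM after saline. The fitted difference, log2 -1.19 ± 0.49 (unadjusted p = 0.0267, adjusted p = 0.998), rested on the library at 139 CPM and was -0.17 ± 0.34 without it. At 24 h it had 27.8, 20.1, 18.2 and 20.2 CPM after LPS, against 35.7, 20.8, 16.4 and 22.1 CPM after saline (log2 -0.09 ± 0.49), and the groups overlapped. Without replicate 1 of SCG 24 h saline, at 35.7 CPM and high in neuron miRNAs, the difference was log2 0.14 ± 0.53. At 7 d miR-122-5p had 10.9, 11.1, 25.6 and 16.9 CPM after LPS, against 33.2, 24.9, 19.8 and 23.2 CPM after saline. Thus 3 of 4 LPS libraries lay below every saline library, and how many other miRNAs separated in this way was not counted. The highest saline library at 7 d, at 33.2 CPM, was replicate 1, which was also high in neuron miRNAs. The difference at 7 d was log2 -0.56 ± 0.50 (adjusted p = 0.519), with an exact permutation p of 0.114. One of the 3 low LPS libraries, at 11.1 CPM, was replicate 2, which stood apart in its marker miRNAs, and without it the difference was log2 -0.34 ± 0.54 (adjusted p = 0.826, edgeR's quasi-likelihood test). Over the 3 times the mean LPS effect was log2 0.18 ± 0.08 in TG (adjusted p = 0.446) and -0.61 ± 0.29 in SCG (adjusted p = 0.327), the last being -0.29 ± 0.19 without replicate 1 of SCG 4 h saline.

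**Figure D2:**
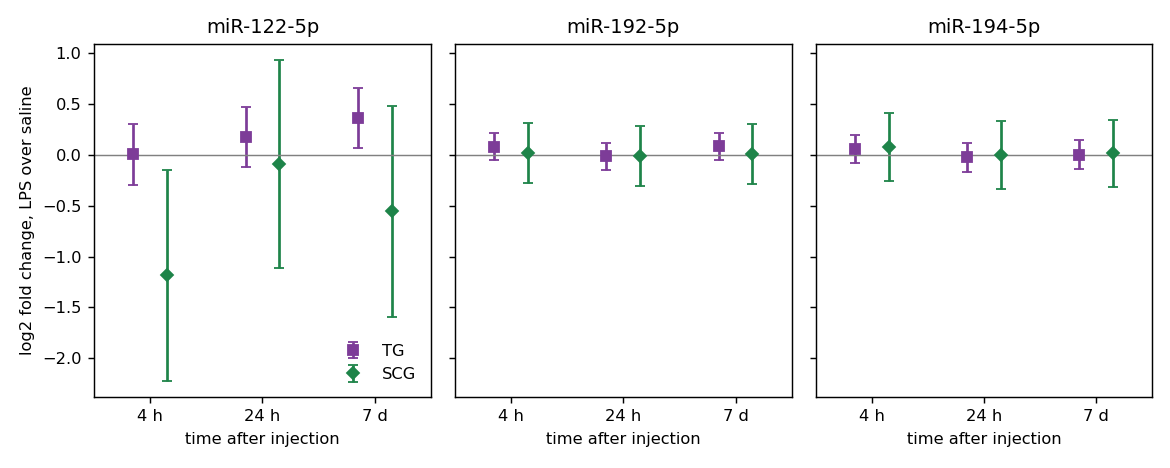
Log2 fold change of LPS over saline with its 95% interval for each miRNA at 4 h, 24 h and 7 d, in TG (squares) and SCG (diamonds). For miR-192-5p and miR-194-5p the value farthest from 0 is 0.0828 log2 units, whereas the intervals of miR-122-5p in SCG span about 2 log2 units.

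For miR-192-5p the largest of the 3 time points' LPS effects was 0.08 log2 units in TG and 0.02 in SCG, and for miR-194-5p 0.06 in TG and 0.07 in SCG. Averaged over the times, the 95% interval of the LPS effect on miR-192-5p was 0.981- to 1.09-fold in TG and 0.889- to 1.12-fold in SCG. For miR-194-5p it was 0.952- to 1.06-fold in TG and 0.892- to 1.16-fold in SCG. By group, miR-192-5p was 505 ± 29.2 CPM after LPS against 480 ± 19.7 CPM after saline at 4 h in TG, 495 ± 19.9 against 503 ± 21.8 CPM at 24 h, and 478 ± 19.0 against 453 ± 31.4 CPM at 7 d. In SCG it was 381 ± 23.9 CPM after LPS against 368 ± 35.2 CPM after saline at 4 h, 367 ± 25.4 against 381 ± 20.4 CPM at 24 h, and 370.4 ± 48.1 against 377 ± 19.2 CPM at 7 d. In each of these 6 pairs the LPS and saline libraries overlapped.

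miR-194-5p was 217 ± 8.51 CPM after LPS against 210 ± 11.1 CPM after saline at 4 h in TG, 199 ± 7.66 against 204 ± 6.03 CPM at 24 h, and 203 ± 12.6 against 204 ± 20.3 CPM at 7 d. In SCG it was 175 ± 24.8 CPM after LPS against 162 ± 13.8 CPM after saline at 4 h, 157 ± 23.0 against 161 ± 8.62 CPM at 24 h, and 166 ± 19.6 against 168 ± 14.4 CPM at 7 d. The order of the 12 groups followed the ganglion: for both miR-192-5p and miR-194-5p the 6 TG groups took the first places and the 6 SCG groups the last. Of all miRNAs tested, 66.4% were called between the ganglia in saline mice and 51.6% in LPS mice. How many others sorted their groups by ganglion was not counted. For miR-194-5p each group overlapped the next in its order of means at all 11 steps, and for miR-192-5p at 10 of 11, the exception being the step between TG 7 d saline and SCG 24 h saline. For miR-122-5p all 11 steps overlapped.

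Few miRNAs of the table passed the test after LPS, which is the background for 0 of 3 called. In TG, 0 of 538 miRNAs were called at 4 h (0%; 15 at an unadjusted p under 0.05, and 2 with DESeq2), 0.372% at 24 h and 6.13% at 7 d, and 0.558% for the mean of the times. In SCG, 0 of 506 were called at 4 h (0%; 13 unadjusted, and 1 with DESeq2), 0.395% at 24 h, 0.593% at 7 d and 1.19% for the mean. DESeq2 called miR-122-5p at none of these times, and none of the 3 miRNAs for the means. The 3 listed miRNAs that inflammation induces, miR-155-5p, miR-146a-5p and miR-21a-5p, were all called higher after LPS at 7 d in both ganglia. Fitted on only the 8 libraries of that time, 1 miRNA of the whole table was called in TG and 0 in SCG, so all 3 SCG calls and at least 2 of the 3 TG calls were lost there. miR-155-5p was higher by log2 1.47 ± 0.37 in TG at 7 d (adjusted p = 0.0231) and by 2.28 ± 0.38 in SCG (adjusted p = 0.00131). Red cell miRNAs had no call after LPS except miR-486b-3p in TG at 7 d, at log2 0.73 ± 0.20 (adjusted p = 0.0311). The 7 red cell strands ran there from -0.36 to 0.73, with a median of 0.01.

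Whether the LPS effect differed between times was tested jointly, with 0 of the 3 called in TG, among 1.49% of 538 miRNAs, and 0 of 3 in SCG, among 0% of 506 (21 unadjusted, and 0 with DESeq2). The LPS effect on miR-122-5p was higher in TG than in SCG by log2 1.15 ± 0.51 at 4 h, 0.29 ± 0.51 at 24 h and 0.93 ± 0.51 at 7 d. None of these passed, with adjusted p of 1.00 at 4 h and 24 h and 0.267 at 7 d by edgeR's quasi-likelihood test over all 48 libraries. The 4 h value was 0.15 ± 0.36 without replicate 1 of SCG 4 h saline. Averaged over the times, a contrast chosen after these levels had been seen, the difference was 0.79 ± 0.29 (unadjusted p = 0.0109, adjusted p = 0.286), and 0.48 ± 0.20 without that library. For miR-192-5p it was 0.05 ± 0.08 and for miR-194-5p -0.01 ± 0.09. Of 577 miRNAs, 0% were called at 4 h (20 unadjusted, 0 with DESeq2), 0% at 24 h (20 unadjusted, 3 with DESeq2), 0.347% at 7 d and 0.173% for the average, so 0 of 3 was close to the background.

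Male and female mice did not differ past the test in any of the 3 miRNAs. In TG, where 0% of the 538 miRNAs were called (24 unadjusted, 0 with DESeq2), male libraries averaged 42.1 ± 5.98 CPM of miR-122-5p and female libraries 39.6 ± 6.05 CPM (n = 12 each). They averaged 497 ± 23.1 CPM of miR-192-5p in males and 475 ± 29.1 CPM in females, and 212 ± 9.20 CPM of miR-194-5p in males and 200.2 ± 12.2 CPM in females. In SCG, where 0.988% of 506 were called, miR-192-5p averaged 364 ± 22.8 CPM in males and 385 ± 28.9 CPM in females, and miR-194-5p 163 ± 21.8 CPM in males and 166 ± 11.7 CPM in females. miR-122-5p averaged 21.0 ± 4.23 CPM in SCG of males and 32.9 ± 34.5 CPM in SCG of females, where the library at 139 CPM lies.

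The paralog miR-215-5p, which has the seed of miR-192-5p, ran the other way between the ganglia. It was at 1.88 ± 0.98 CPM in TG and 7.69 ± 2.87 CPM in SCG, with 1 to 15 reads in a TG library and 9 to 37 reads in an SCG library. In LPS mice it was lower in TG by log2 -2.06 ± 0.25 (adjusted p = 6.43e-07) and in saline mice by -2.06 ± 0.21 (adjusted p = 1.16e-08). Per 100 reads of miR-192-5p in the same library, with no scaling, there were 0.393 ± 0.215 of miR-215-5p in TG and 2.07 ± 0.82 in SCG. So miR-192-5p held nearly all of the shared seed in both ganglia, and over all libraries miR-215-5p made up 752 of 75237 reads of the pair (1.00%, exact 95% interval 0.93% to 1.07%). Intervals of this kind cover counting error only.

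In SCG miR-215-5p was also higher in males, and it was one of the 5 miRNAs called there between the sexes. The 12 male SCG libraries ran from 5.14 to 12.1 CPM (median 9.89) and the 12 female SCG libraries from 3.22 to 9.12 CPM (median 5.02). The lowest male library lay above 6 of the 12 female libraries, and the ranges overlapped. The difference was log2 0.84 ± 0.17 (male over female, adjusted p = 0.0187). Leaving out single libraries kept it between 0.73 and 0.92, and took its adjusted p past 0.05 in 8 of 24 cases, up to 0.0903. In TG the sexes had 1.96 ± 1.10 CPM in males and 1.80 ± 0.89 CPM in females (log2 0.11 ± 0.27, adjusted p = 0.984). A difference of the sex effect between the ganglia was not tested. After LPS at 7 d in TG, miR-215-5p had 2.11, 0.925, 1.89 and 0.784 CPM, against 2.63, 2.82, 3.05 and 4.15 CPM after saline, and all 4 LPS libraries lay below all 4 saline libraries. With 3 to 15 reads behind each of these values, the log2 difference of -1.09 did not pass the test (adjusted p = 0.127). How many other miRNAs separated in this way was not counted. In TG at 7 d, 124 of 538 miRNAs had an unadjusted p under 0.05 by edgeR's quasi-likelihood test.

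**Figure D3:**
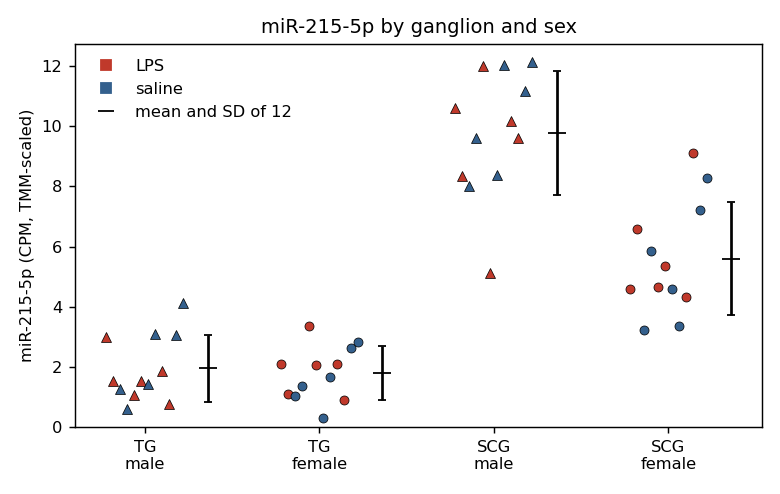
CPM of miR-215-5p in the 24 TG and 24 SCG libraries by sex, coloured by treatment, with the mean and SD of each 12. SCG of males averaged 9.77 ± 2.07 CPM and SCG of females 5.60 ± 1.87 CPM, whereas both sexes of TG lay near 2 CPM.

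The other strands of the hairpins had few counts. Of the 6 partner strands, miR-215-5p passed the filter in every fit and miR-194-2-3p in the SCG, LPS and 48-library fits, and the other 4 in none. miR-122-3p had 4 reads over all 48 libraries beside 5715 of miR-122-5p, and miR-192-3p had 8 beside 74485 of miR-192-5p. The miR-194 hairpins could be told apart by their 3p strands. miR-194-2-3p, from the hairpin next to Mir192, had 330 reads, detected in all 48 libraries, and miR-194-1-3p, from the hairpin next to Mir215, had 7. miR-194-2-3p thus took 97.9% of both (exact 95% interval 95.8% to 99.2%). It was at 1.71 ± 0.69 CPM in TG and 2.23 ± 1.13 CPM in SCG. These shares describe the 3p strands and do not measure from which hairpin miR-194-5p came.

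The ratio of miR-194-5p to miR-192-5p varied little between libraries, as did each level by itself. Per 100 reads of miR-192-5p there were 42.5 ± 2.46 of miR-194-5p in TG (range 38.1 to 45.9) and 44.1 ± 3.33 in SCG (range 37.6 to 53.2), a coefficient of variation of 5.80% and 7.57%. For the CPM of miR-192-5p by itself it was 5.77% in TG and 7.37% in SCG, and for miR-194-5p 5.90% and 10.4%. The same ratio was 41.9 ± 2.06 in TG after LPS and 43.1 ± 2.78 in TG after saline, and 44.5 ± 4.17 in SCG after LPS and 43.6 ± 2.33 in SCG after saline. miR-122-5p per 100 of miR-192-5p varied more, at 8.80 ± 1.15 in TG after LPS and 8.02 ± 1.00 in TG after saline, and 5.42 ± 2.01 in SCG after LPS and 9.53 ± 10.95 in SCG after saline, the last with its highest library at 44.0.

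**Figure D4:**
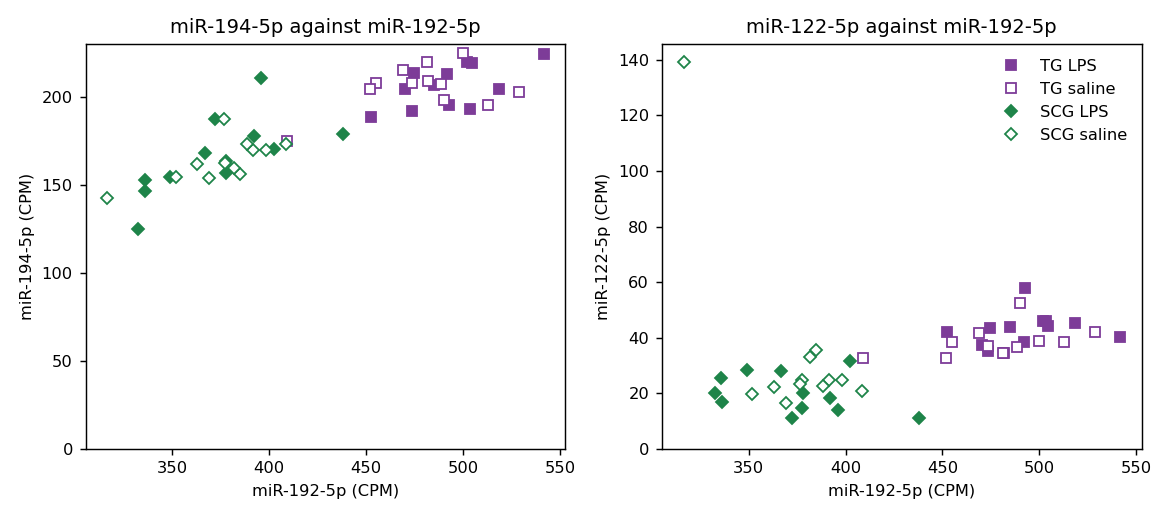
CPM of miR-194-5p (left) and miR-122-5p (right) against miR-192-5p in each library, with filled symbols for LPS, open symbols for saline, squares for TG and diamonds for SCG. On the left the libraries lie along one band, and on the right 1 SCG saline library stands off at 139 CPM.

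Across the 24 libraries of a ganglion, 18 relations were tested on log2(CPM + 1), with p adjusted over them, after 100000 permutations each. All libraries of a relation share the scaling that CPM imposes. miR-192-5p and miR-194-5p rose and fell together in SCG, with Pearson's r = 0.708 (permutation p = 0.00019, adjusted 0.00342) and Spearman's rho = 0.743 (p = 8e-05, adjusted 0.00144), and r = 0.693 without the 2 libraries farthest from the median of miR-192-5p. In TG r was 0.513 (p = 0.0118, adjusted 0.0533) and rho 0.231 (p = 0.274, adjusted 0.447), and r was 0.0994 without 2 libraries, so it rested on them. After the mean of each group of 4 had been taken off, r was 0.623 in TG (adjusted p = 0.00696) and 0.724 in SCG (adjusted p = 0.00198). The p of such residuals, here and below, came from shuffling all 24 of them freely. Residuals of a group are tied to each other, so fewer than 24 are free, and these p are somewhat too small.

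miR-122-5p went with miR-192-5p in TG by rank, with rho = 0.561 (permutation p = 0.00512, adjusted 0.0307) and r = 0.444 (p = 0.0300, adjusted 0.0900), and r = 0.391 without 2 libraries. In SCG the sign was the other way, with r = -0.453 (p = 0.0281, adjusted 0.0900) and rho = -0.142 (p = 0.506, adjusted 0.701), and r = 0.0862 without 2 libraries. After the group means had been taken off, the SCG relation came under 0.05 by Pearson's r, at -0.541 (permutation p = 0.00662, adjusted 0.0240). There rho was -0.465 (adjusted 0.0526) and r -0.331 without 2 libraries. These p are too small, as said above, so whether the relation passes is not settled. miR-122-5p and miR-194-5p had r = 0.02 in TG (p = 0.923, adjusted 0.923) and -0.410 in SCG (p = 0.0576, adjusted 0.130), with rho of -0.01 (p = 0.946, adjusted 0.946) and -0.339 (p = 0.104, adjusted 0.237). The 3 miRNAs thus did not move as one set from library to library.

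Nor did they follow the red cell miRNA miR-451a in one way. miR-451a and miR-122-5p had r = -0.380 in TG (permutation p = 0.0664, adjusted 0.133) and -0.363 in SCG (p = 0.0847, adjusted 0.152), with rho of -0.365 (p = 0.0810, adjusted 0.237) and -0.233 (p = 0.271, adjusted 0.447). For miR-192-5p it had r = -0.319 in TG (p = 0.128, adjusted 0.192) and 0.514 in SCG (p = 0.00971, adjusted 0.0533), and for miR-194-5p -0.319 in TG (p = 0.127, adjusted 0.192) and 0.552 in SCG (p = 0.00534, adjusted 0.0481). In SCG r with miR-194-5p was 0.371 without 2 libraries. Neither relation of miR-451a with miR-122-5p was positive. After the group means had been taken off, 2 more relations of miR-451a came under 0.05, on p that are too small, as said above. miR-451a with miR-122-5p in TG did so by rank, at rho = -0.535 (permutation p = 0.00799, adjusted 0.0240) with r = -0.439 (adjusted 0.0641). miR-451a with miR-192-5p in SCG had r = 0.621 (adjusted 0.00696) and rho = 0.617 (adjusted 0.0134).

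The skin and epithelium miRNA miR-203-3p and miR-122-5p had r = 0.534 in SCG (permutation p = 0.0380, adjusted 0.0976), but rho = -0.117 (p = 0.590, adjusted 0.745) and r = -0.02 without 2 libraries. After the group means had been taken off, r was 0.575 (adjusted p = 0.0316, too small as said above), rho 0.201 (adjusted p = 0.519) and r without 2 libraries 0.0237. Replicate 1 of SCG 4 h saline was the highest library of its group in both. That library had 9876 CPM of miR-203-3p, against 177 to 702 CPM in the other 3 of its group, and 86498 CPM of the muscle miRNA miR-1a-3p, against 299 to 19709 CPM. Its miR-192-5p, at 316 CPM, was the lowest of all 48 libraries, and its miR-194-5p, at 142 CPM, the lowest of the 12 saline SCG libraries. Its miR-451a, at 297 CPM, lay within its group's range of 242 to 654 CPM. The part of other tissue in its miR-122-5p was not tested.

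The miRNAs most like each of the 3 over the 24 libraries of a ganglion, by Spearman's rho of log2 CPM among all that passed the filter and with the 3 and their partners left out, were as follows. For miR-122-5p they were let-7i-5p (0.63), miR-409-5p (0.61) and miR-485-5p (0.59) in TG, and miR-499-5p (0.65), miR-346-5p (0.56) and miR-127-5p (0.53) in SCG. For miR-192-5p they were let-7f-5p (0.68), let-7i-5p (0.67) and miR-20b-5p (0.64) in TG, and miR-30e-3p (0.82), miR-181a-5p (0.73) and miR-423-3p (0.73) in SCG. For miR-194-5p they were miR-1981-5p (0.57), let-7k (0.49) and miR-1306-3p (0.49) in TG, and miR-126a-3p (0.66), miR-30e-3p (0.65) and miR-503-3p (0.63) in SCG. For none of the 3 did a miRNA appear among the first 3 of both ganglia. With all miRNAs ranked by likeness to miR-194-5p, miR-192-5p stood at place 75 of 537 in TG and at place 1 of 505 in SCG, whereas miR-122-5p stood at place 289 in TG and 447 in SCG. These are the highest of over 500 values each, and the libraries share their scaling.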

How the data were processed

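A ligation kit turned 140 ng of RNA per sample into small RNA libraries, per the labels' protocols. RNA integrity is given there as 6.4 to 9.3 (mean 8.3) over 96 RNA samples, not for the 48 libraries by themselves. The authors deposited whole-number counts per mature miRNA, not normalized. The submitters' processing notes name FastQC 0.11.9 and build GRCm39, and for the aligner no name is given in the sources used here. Sequences and coordinates are RefSeq's on GRCm38.p6, another build, since the counts carry no coordinates. Groups came from the labels, and replicate numbers follow accession order. R 4.3.3 and edgeR 4.0.16 tested the counts by quasi-likelihood F-tests after TMM scaling, with its filter at a minimum count of 10 and robust dispersions, with p adjusted by Benjamini-Hochberg over all miRNAs of a fit and called under 0.05. TG and SCG were fitted apart (24 libraries each, 6 groups, sex term). TG against SCG used the 24 LPS or the 24 saline libraries with time and sex, and interactions all 48, with no animal term, since libraries of both ganglia may share mice that the labels do not tie to them. DESeq2 1.42.0, other scalings, no filter, no sex term and left-out libraries were alternatives. The test was checked on simulated counts of LPS against saline at each time. It called 39.8% to 45.8% of changes of log2 1 in SCG and 74.5% to 80.4% in TG, so changes of that size are often missed in SCG. The simulated counts held a far larger share of changed miRNAs than was called after LPS at any time. That eases the adjusted p, so these percentages may overstate what the test finds in the data. The miRNAs named are the 3 members, their hairpin partners and paralog, the 3 most like each by rank, and listed markers. Members and lists were chosen with earlier results of these data known. tRNA fragment counts were not used here.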

Additional observations from a re-analysis of the deposited data

Results flagged for a closer look

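In 2 of the 36 groups of 4 libraries examined (3 miRNAs in 12 groups) the highest library lay far from the other 3, where chance flags about 1 in 20 groups. Both were miR-122-5p in saline mice at 4 h. In SCG, replicate 1, from a female mouse, had 139 CPM (273 reads), against 22.7 to 24.7 CPM in the other 3 libraries. In TG, replicate 1, also from a female mouse, had 52.6 CPM (170 reads), against 37.0 to 38.8 CPM in the other 3. The labels do not say whether these libraries came from one animal.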

How the results depend on the processing

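Of 294 values of single miRNAs under the alternatives other than leaving out 1 library, 264 kept their direction and side of the threshold or moved by less than their spread, 12 moved by more, 10 changed sign, 5 passed the threshold only there and 3 lost it. The counts of calls moved most. With DESeq2 the LPS comparison called 1, 7, 52 and 17 miRNAs in SCG at 4 h, 24 h, 7 d and for the mean, and 2, 55 and 7 in TG at 4 h, 7 d and for the mean. It called 21 for a difference between times in TG, 25 between the sexes in SCG, and 3, 66 and 3 for the LPS effect in TG minus SCG at 24 h, 7 d and for the mean. Without the filter on low counts the LPS calls were 24, 15, 69 and 51 in SCG and 16, 20, 54 and 31 in TG, those between times 37 in SCG and 57 in TG, those between the sexes 40 in SCG and 19 in TG, and those in TG minus SCG 14, 12, 81 and 41. Without the sex term 7 were called in SCG at 7 d, and 1 and 20 in TG minus SCG at 24 h and 7 d. Without both SCG libraries that stood apart, 3, 5 and 10 were called in SCG at 4 h, 24 h and for the mean, 35 between the sexes in SCG, and 17 in TG minus SCG at 7 d. Scaling by relative log expression gave 12 and 0 for TG minus SCG at 7 d and for the mean. Fits of only the 8 libraries of a time gave 2, 5 and 0 in SCG, and 1 each in TG at 24 h and 7 d. Causes were not tested. The comparison with the median of all miRNAs and miR-122-5p in saline mice without replicate 1 of SCG 4 h saline were chosen after seeing the data.

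Leaving out 1 library gave 0 to 3, 2 to 6, 3 to 32 and 3 to 12 LPS calls in SCG at 4 h, 24 h, 7 d and for the mean, and 0 to 1, 1 to 3, 18 to 88 and 3 to 13 in TG. It gave 0 to 34 calls between times in TG, 1 to 32 between the sexes in SCG, and 0 to 3, 0 to 62 and 0 to 2 in TG minus SCG at 24 h, 7 d and for the mean. Values near 0 changed sign: the mean LPS effect on miR-192-5p in SCG ran from -0.0204 to 0.0539, that on miR-194-5p in TG from -0.0084 to 0.0254, miR-122-5p in SCG at 24 h from -0.19 to 0.14 and in TG at 4 h from -0.11 to 0.16, miR-194-5p in TG minus SCG from -0.0473 to 0.0242 and between the sexes in SCG from -0.0702 to 0.00549, and miR-215-5p between the sexes in TG from -0.000942 to 0.21. miR-122-5p in TG against SCG of saline mice ran from 0.24 to 0.63, and miR-215-5p between the sexes in SCG from 0.73 to 0.92.

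Under single settings, the mean LPS effect on miR-192-5p in SCG was 0.00882 with relative log expression, 0.0074 with DESeq2, 0.0213 without the filter and 0.00064 without the sex term. That on miR-194-5p in TG was -0.0028 and -0.00292 with relative log expression and DESeq2, and its TG minus SCG value 0.0144, 0.018 and 0.0398 with these and without both libraries. The sex difference of miR-215-5p in SCG was 0.83 without the filter (adjusted p = 0.0788, edgeR). miR-122-5p in TG against SCG of saline mice was 0.63 without both libraries, and miR-192-5p and miR-194-5p in LPS mice 0.40 and 0.31 without the filter. On residuals from group means r was 0.623 for miR-192-5p with miR-194-5p and -0.0129 for miR-194-5p with miR-122-5p in TG, and in SCG -0.541 for miR-192-5p with miR-122-5p, 0.621 for miR-451a with miR-192-5p and 0.575 for miR-203-3p with miR-122-5p. The p of these residuals, which set their side of the threshold, are too small, as said above. CPM by library total gave miR-192-5p 460.5 and 474 CPM in TG 24 h LPS and saline, 451 in TG 4 h saline, 454 in TG 7 d LPS, 398 and 407 in SCG 24 h LPS and saline, and 404 in SCG 7 d saline. It gave miR-194-5p 205 and 197 CPM in TG 4 h LPS and saline, 185 and 192 in TG 24 h LPS and saline, and 172 in SCG 24 h saline.

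No paired analysis was possible because the labels do not tie libraries to animals across groups and the replicate numbers follow accession order. miR-122-5p had 34 to 273 reads in a library, and the part of this depth in its spread between libraries was not tested.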
